A study of Mus musculus with 3 samples.

Results

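The 9 genes described here, P2ry12, P2ry13, Tmem119, Cx3cr1, Csf1r, Gpr34, Siglech, Selplg and Olfml3, mark microglia in their resting, tissue-surveying state. They were found by gene symbol among the 31053 genes of 3 spatial transcriptome sections of mouse brain, and all 9 were measured in every section. Each section was a fresh frozen brain slice of 10 µm from a C57BL/6J mouse, with no transgene named, and each condition had 1 section. Y-Ctrl and O-Ctrl carried the treatment label Control and O-Ex the label Exercise. The study asked about exercise and brain aging, so Y and O were read as young and old. The sources used here give neither ages nor the number of animals nor the kind of exercise.

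Microglia are the resident macrophages of the brain. Their survival depends on CSF1R, a receptor for CSF1 and IL-34, and their identity depends on transforming growth factor beta. Their fine processes follow purines through P2Y receptors and read the neuronal ligand fractalkine through CX3CR1. When microglia become reactive, for example around damaged myelin, genes of this resting set are typically lowered while complement, lysosomal and lipid-handling genes are raised.

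In the mm10 annotation P2ry12 (chr3:59216272-59262871, minus strand) and P2ry13 (chr3:59207892-59210882, minus strand) are neighbours. Both lie inside Med12l, which is read from the other strand and has 1 exon that overlaps exons of P2ry12. Tmem119 (chr5:113793729-113800516, minus) and Selplg (chr5:113818536-113832644, minus) are also neighbours, and no annotated gene overlaps either of them. Olfml3 (chr3:103722222-103738001, minus) and Siglech (chr7:55768178-55778925, plus) are free of overlaps too. Gpr34 (chrX:13632089-13640858, plus) lies inside Cask on the other strand without sharing exons. The locus of Cx3cr1 (chr9:119901616-120069879, minus) overlaps 9 genes, but exons of 1 only, the antisense gene Gm33858. The sources used here do not say whether counting used strand, so the counts of P2ry12 and Cx3cr1 may hold some reads of these partners.

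RefSeq promoter sequences (GRCm38.p6) were matched for 5 of the 9 genes. The 250 bases before the transcription start are shown for the purine receptor pair, which lie side by side and of which P2ry12 differed between sections, and for Olfml3, whose level differed in opposite directions in white matter and cortex. Capitals mark GAGGAA, a form of the sites bound by PU.1 and other ETS factors, or TGTGGT, a core bound by RUNX factors. TGTGGT reads ACCACA where it lies on the opposite strand.
P2ry12 (chr3:59262986-59263235, minus strand): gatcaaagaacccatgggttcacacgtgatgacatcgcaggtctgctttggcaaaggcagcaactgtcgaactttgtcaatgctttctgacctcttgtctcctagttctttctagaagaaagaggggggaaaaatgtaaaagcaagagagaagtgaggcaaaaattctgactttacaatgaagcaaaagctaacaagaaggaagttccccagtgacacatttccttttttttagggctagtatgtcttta
P2ry13 (chr3:59210883-59211132, minus strand): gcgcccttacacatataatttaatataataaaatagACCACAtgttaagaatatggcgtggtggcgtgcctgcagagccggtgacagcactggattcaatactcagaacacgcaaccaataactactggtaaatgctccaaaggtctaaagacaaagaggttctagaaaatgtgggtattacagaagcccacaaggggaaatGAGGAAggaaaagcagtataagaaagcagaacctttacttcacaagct
Olfml3 (chr3:103738002-103738251, minus strand): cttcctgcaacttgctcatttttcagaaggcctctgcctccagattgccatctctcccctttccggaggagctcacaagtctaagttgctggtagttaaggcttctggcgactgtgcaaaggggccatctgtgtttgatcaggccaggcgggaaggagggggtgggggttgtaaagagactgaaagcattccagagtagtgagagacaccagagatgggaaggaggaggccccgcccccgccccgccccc

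The P2ry13 window held GAGGAA 43 bases before the start and TGTGGT, on the opposite strand, 209 bases before it. The same TGTGGT core lay on the opposite strand 49 bases before the start of Cx3cr1 and 110 bases before that of Siglech. The windows of P2ry12 and Olfml3 held neither GAGGAA nor TGTGGT, and none of the 5 held the AP-1 site TGANTCA. Both of these windows do hold the shorter GGAA, which was not searched for. Both strands were searched, and the motifs, which do not overlap each other here, were chosen after the sequences were seen. Of 32851 promoters of the same length, 23.3% held GAGGAA, 14.0% TGTGGT and 6.75% TGANTCA. A match describes letters and not a bound site. The RefSeq start of P2ry12 lies beyond the end of the annotated gene given above, so its window belongs to the RefSeq transcript.

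Each section had counts for 4992 barcoded array spots, with 1 set of barcodes for all sections. How many lay under tissue is not known, since spot images were not used. In Y-Ctrl, O-Ctrl and O-Ex 3409, 3498 and 3332 spots passed a minimum of 3000 unique molecular identifiers (UMIs, counted RNA molecules). Total counts were 62348064, 58234443 and 53196124 UMIs, and the median spot held 15718, 14900 and 13685. The 9 genes together gave 11028, 10317 and 9478 UMIs. Spots were put into 11 groups found in every section, from regional marker genes that include none of the 9, and each group had at least 5 of its markers among its 30 leading genes. The spots were not equally shared out: thalamus spots numbered 556, 257 and 239, and striatum spots 150, 141 and 58. Each spot takes in RNA of several cells, so fewer microglia and less RNA per microglia cannot be told apart. With 1 section per condition, conditions were not tested. Intervals are 95% counting intervals (exact Poisson for levels), which leave out variation between animals, and levels are CPM, UMIs of a gene scaled to a fixed total.

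Over whole sections the summed level of the 9 genes was the same within counting error. It was 180.2 CPM in Y-Ctrl (interval 176.9 to 183.6), 181.0 CPM in O-Ctrl (177.5 to 184.5) and 182.8 CPM in O-Ex (179.1 to 186.5). The 3 intervals overlapped. Per spot, the sum was 3.24, 2.95 and 2.84 UMIs, in the order of sequencing depth.

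**Figure D1:**
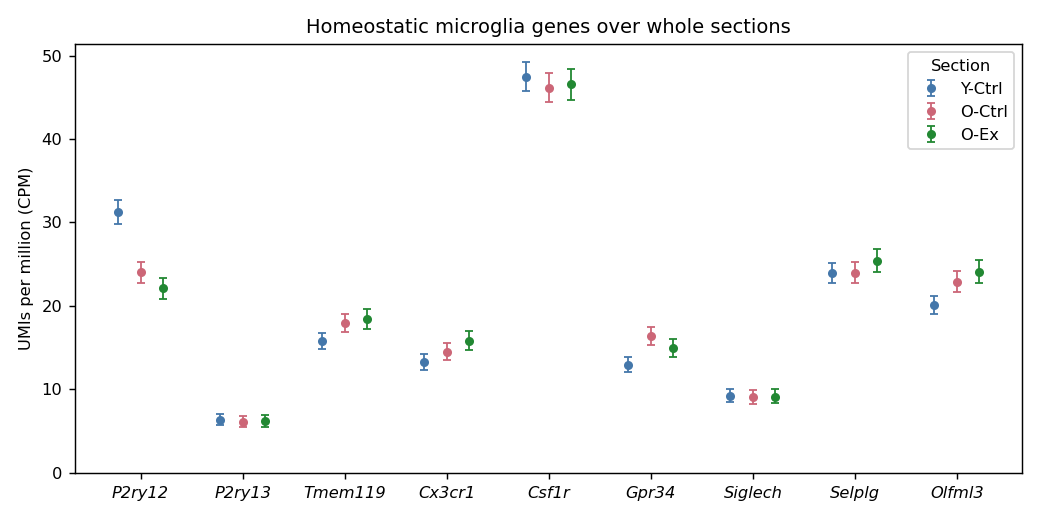
Level of each of the 9 genes over the whole section, in CPM, with exact 95% Poisson intervals, 1 point per section. P2ry12 has a higher point in Y-Ctrl (31.2 CPM) than in O-Ctrl (24.0) and O-Ex (22.1), while the 3 points of P2ry13, Csf1r and Siglech lie within each other's intervals.

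Among the purine and lipid receptors, P2ry12 stood apart from its neighbour P2ry13. P2ry12, the ADP receptor that steers microglial processes, was measured at 31.2 CPM in Y-Ctrl (29.8 to 32.7), 24.0 CPM in O-Ctrl (22.8 to 25.3) and 22.1 CPM in O-Ex (20.8 to 23.4). Y-Ctrl was above both O sections without overlap of the intervals, and the intervals of O-Ctrl and O-Ex overlapped. The log2 ratio of O-Ctrl over Y-Ctrl, taken on CPM plus 5, was -0.32 (-0.40 to -0.24). P2ry13, a related ADP receptor, was at 6.36, 6.11 and 6.21 CPM, with all intervals overlapping. Gpr34, a receptor for lysophosphatidylserine, was at 12.9 CPM in Y-Ctrl (12.04 to 13.9), 16.4 CPM in O-Ctrl (15.3 to 17.5) and 14.96 CPM in O-Ex (13.9 to 16.1). Its Y-Ctrl level was below both others without overlap, and the log2 ratio of O-Ctrl over Y-Ctrl was 0.25 (0.15 to 0.35).

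The growth factor and chemokine receptors differed less. Csf1r was at 47.4 CPM in Y-Ctrl (45.7 to 49.2), 46.1 CPM in O-Ctrl (44.4 to 47.9) and 46.6 CPM in O-Ex (44.7 to 48.4), with all intervals overlapping. Its gene (chr18:61100598-61132149, plus strand) shares sequence with 3 exons of Hmgxb3 on the other strand, so its counts may hold reads of that gene. Cx3cr1, the fractalkine receptor, was at 13.3 CPM (12.4 to 14.2), 14.5 CPM (13.5 to 15.5) and 15.8 CPM (14.8 to 17.0) in the same order. For Cx3cr1 only the intervals of Y-Ctrl and O-Ex were apart.

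The remaining 4 genes encode surface and secreted proteins. Tmem119, a membrane protein used to tell microglia from blood-derived macrophages, was at 15.8 CPM in Y-Ctrl (14.8 to 16.8), 17.9 CPM in O-Ctrl (16.9 to 19.1) and 18.4 CPM in O-Ex (17.3 to 19.6). Olfml3, a secreted matrix protein, was at 20.1 CPM (19.0 to 21.2), 22.9 CPM (21.7 to 24.2) and 24.1 CPM (22.8 to 25.5). For both genes Y-Ctrl was the lowest section, without overlap with either O section. Selplg, the P-selectin ligand PSGL-1, was at 23.9, 24.0 and 25.4 CPM, and Siglech, a sialic acid-binding lectin, at 9.25, 9.07 and 9.14 CPM. All intervals of Selplg and of Siglech overlapped.

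The question of aging is addressed by O-Ctrl over Y-Ctrl. A log2 ratio beyond 0.322 in either direction was taken as past the margin. Over the whole section none of the 9 genes was past it, with P2ry12 just inside, while of 9013 genes averaging 10 CPM or more 1.54% were higher by more than the margin and 1.3% lower. P2ry13 and Siglech are below 10 CPM, so 7 of the 9 genes are among those 9013. Averaging the log2 ratio over the 11 spot groups with equal weight, called region-matched here, gives each region the same weight in each section. The groups themselves were not equal in make-up. An unsupervised cluster led by Calb2 and Necab1 held 119, 2 and 0 of the thalamus spots in Y-Ctrl, O-Ctrl and O-Ex. One led by Cartpt and Penk held 33, 53 and 1 of the hypothalamus spots. A cluster with striatum markers held 93, 71 and 12 of the striatum spots, and one with hypothalamus markers 8, 50 and 49 of the ependyma spots. One led by Ctxn3 and Cbln1 held 5, 34 and 42 of the layer 6 spots. Upper cortex was unequal too, as given below. Ratios within these groups compare partly different tissue. Region-matched, the sum of the 9 genes differed by 0.02 (-0.03 to 0.07), and the median of the 9 ratios was 0.02. Over the 7 members at 10 CPM or more the median was 0.17, beside -0.01 over all genes of that level. Without the thalamus and hypothalamus spots, an alternative added after seeing the data, the sum was at -0.0022 and P2ry12 at -0.35. That alternative kept the other unequal groups. The members did not move as a block: their region-matched ratios ran from -0.36 for P2ry12 to 0.30 for Tmem119.

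P2ry12 was the one member past the margin region-matched, at -0.36 (-0.47 to -0.25), and 0.754% of all genes were lower by that margin. It was lower in O-Ctrl in 10 of 11 groups. Its level was 32.8 CPM in Y-Ctrl, 20.4 CPM in O-Ctrl and 18.5 CPM in O-Ex in the upper cortical layers, and 29.4, 16.6 and 21.2 CPM in layer 5. In both groups Y-Ctrl was above the other sections with no overlap of the intervals. White matter was the exception, at 44.2 CPM in Y-Ctrl (38.0 to 51.1), 45.3 CPM in O-Ctrl (39.3 to 51.9) and 40.8 CPM in O-Ex (34.1 to 48.5), where all intervals overlapped. The region-matched difference shrank to -0.23 when spots from 1000 UMIs were kept and to -0.31 with spot groups from unsupervised clusters, both inside the margin.

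No member was region-matched higher in O-Ctrl by more than the margin, against 1.2% of all genes. Tmem119 came closest at 0.30 (0.17 to 0.42), followed by Cx3cr1 at 0.24 (0.11 to 0.38), Olfml3 at 0.19 (0.08 to 0.30) and Gpr34 at 0.17 (0.04 to 0.30). Each of these was higher in O-Ctrl in 8 of 11 groups. Tmem119 passed the margin in some other settings, at 0.34 with a minimum of 5000 UMIs and 0.38 with a pseudocount of 1 CPM. The other 4 genes lay between -0.07 for Csf1r and 0.02 for Siglech, with intervals that included 0.

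**Figure D2:**
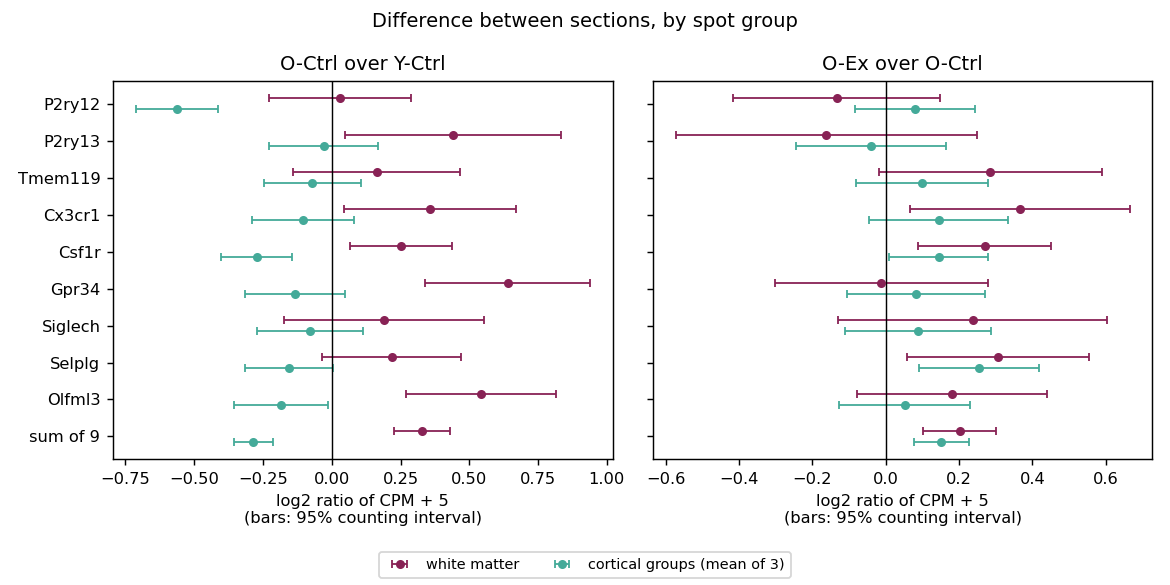
Log2 ratios of CPM plus 5 for each gene and the sum of the 9, in white matter and as the mean of the 3 cortical groups. The panels give O-Ctrl over Y-Ctrl and O-Ex over O-Ctrl, with 95% counting intervals. For O-Ctrl over Y-Ctrl all 9 genes are above 0 in white matter and below 0 in cortex. Of all genes, 55.2% are above 0 in white matter and 50.6% in cortex. Scaled to spots in place of UMIs, white matter keeps 0.35 for the sum and cortex -0.51.

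White matter and cortex differed in opposite directions. In white matter spots, led by myelin genes, the summed level was 309.1 CPM in Y-Ctrl (292.4 to 326.6), 389.2 CPM in O-Ctrl (371.3 to 407.7) and 448.6 CPM in O-Ex (425.6 to 472.5). All 3 intervals were apart. All 9 genes were above 0 for O-Ctrl over Y-Ctrl, beside 55.2% of all genes. Of the 9, 4 were higher by more than the margin, beside 10.4% of all genes higher and 4.6% lower. Gpr34 differed most, at 24.1 CPM in Y-Ctrl (19.6 to 29.3), 40.3 CPM in O-Ctrl (34.7 to 46.5) and 39.9 CPM in O-Ex (33.3 to 47.5), a log2 ratio of 0.64 (0.34 to 0.94) between the controls. Olfml3 was at 32.1 CPM (26.8 to 38.0), 49.0 CPM (42.8 to 55.9) and 56.2 CPM (48.3 to 65.1), a ratio of 0.54 (0.27 to 0.82). For both genes Y-Ctrl lay below the O sections without overlap. P2ry13 followed at 0.44 (0.05 to 0.83) and Cx3cr1 at 0.36 (0.04 to 0.67), while P2ry12 was at 0.03 (-0.23 to 0.29).

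In the 3 cortical groups pooled, the summed level was 166.6 CPM in Y-Ctrl (161.3 to 172.1), 133.7 CPM in O-Ctrl (128.7 to 138.8) and 148.2 CPM in O-Ex (142.7 to 153.9). Here O-Ctrl was the lowest section, and the 3 intervals were apart. The upper cortex spots were not equal in make-up between sections. An unsupervised cluster with meninges markers, led by Ptgds and Mgp, held 120 of 388 of them in Y-Ctrl, 50 of 349 in O-Ctrl and 128 of 403 in O-Ex. The part of this in the cortical values was not tested. The mean log2 ratio of O-Ctrl over Y-Ctrl over the 3 groups was -0.28 (-0.36 to -0.21) for the sum. None of the 9 genes was above 0 in this mean, beside 50.6% of all genes. By group, 1 of 9 was above 0 in the upper layers, 0 in layer 5 and 5 in layer 6. Of all genes 48.2%, 51.7% and 51.9% were. P2ry12 alone was lower by more than the margin, at -0.56 (-0.71 to -0.41), beside 0.699% of all genes lower and 1.12% higher. Csf1r was at -0.27 (-0.40 to -0.14) and Olfml3 at -0.18 (-0.35 to -0.01), and the other 6 intervals included 0. Within cortex the sum differed by -0.33 in the upper layers, -0.52 in layer 5 and -0.01 (-0.15 to 0.13) in layer 6.

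The opposite directions were also seen on UMIs per spot. White matter spots held 3.28, 4.20 and 4.28 UMIs of the 9 genes in Y-Ctrl, O-Ctrl and O-Ex, and pooled cortical spots 4.09, 2.80 and 2.89. Scaled to spots, the sum differed between the controls by 0.35 in white matter and -0.51 in cortex, where the median of all genes was -0.20 on that scale. Unsupervised clustering without microglial and immune genes gave 2 white matter clusters. The larger held 374.0, 467.0 and 497.7 CPM of the 9 genes and the smaller 234.1, 284.3 and 400.2 CPM, with Y-Ctrl lowest in each and no overlap with O-Ctrl. Whether white matter and cortex differ in their difference between conditions cannot be tested with 1 section each.

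**Figure D3:**
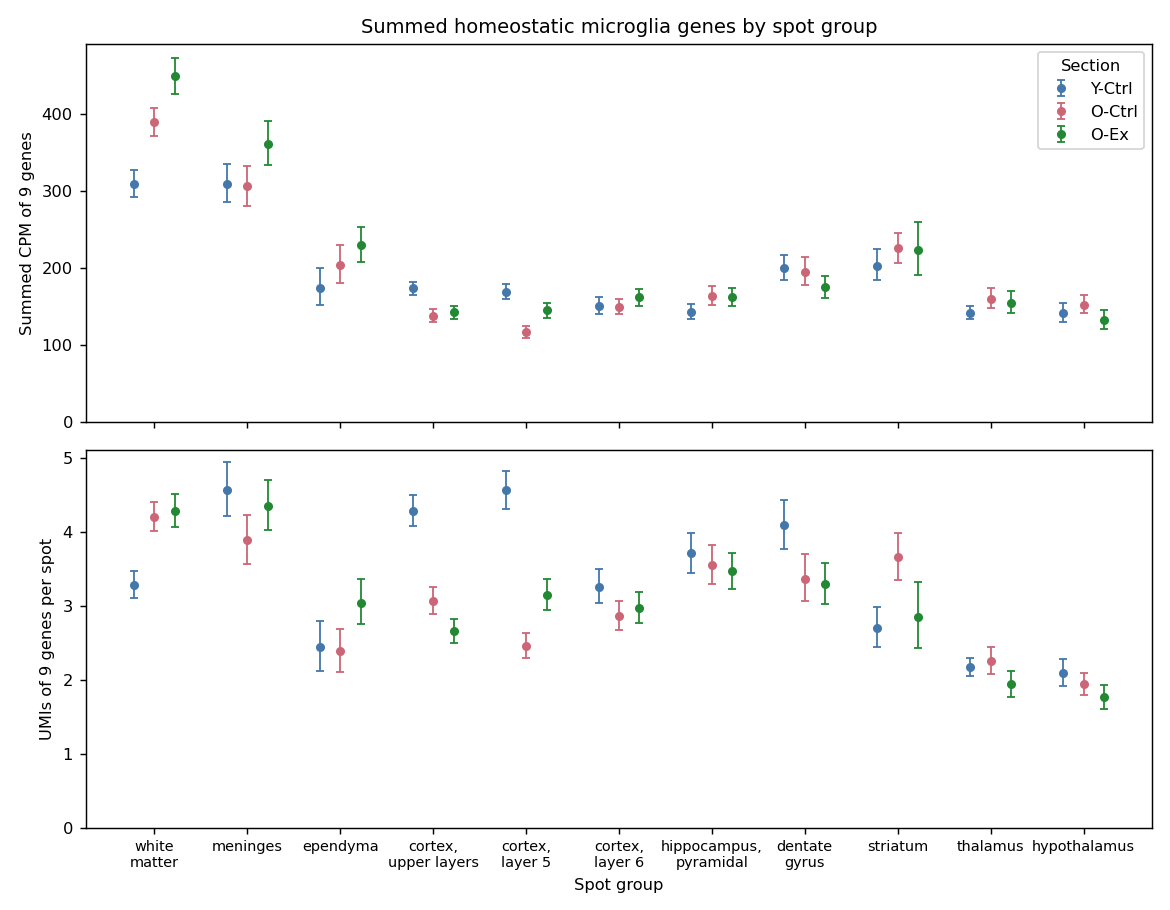
Summed level of the 9 genes in each of the 11 spot groups, in CPM (top) and in UMIs per spot (bottom), by section, with exact 95% Poisson intervals. White matter (309.1, 389.2 and 448.6 CPM in Y-Ctrl, O-Ctrl and O-Ex) and meninges (308.9, 305.7 and 361.2 CPM) lie above the other groups; on UMIs per spot this order does not hold, for example 4.28 in upper cortex against 3.28 in white matter of Y-Ctrl.

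Genes of other cell types also differed between sections in white matter, not all in the direction of the 9 genes. The 11 border macrophage markers, among them Mrc1 and Stab1, summed to 9.72 CPM in white matter of Y-Ctrl, 18.6 CPM in O-Ctrl and 25.1 CPM in O-Ex, with 3, 1 and 2 of them at 0. Lyve1 had 0 UMIs there in each section, and Mrc1 had 4, 14 and 13 UMIs and Stab1 22, 40 and 43, beside 1272, 1779 and 1428 UMIs of the 9 genes. Across the cortical groups the same sum was 5.09 to 10.8 CPM. The 9 monocyte and neutrophil markers, led by S100a8 and S100a9, summed to 1.22, 4.16 and 2.51 CPM in white matter, with 4, 5 and 4 of them at 0 and Ccr2 at 0, 0 and 1 UMIs. The 11 lymphocyte and dendritic cell markers summed to 1.70, 4.81 and 5.03 CPM there, with 10, 5 and 7 at 0, and Flt3 gave 7, 10 and 9 of these UMIs. The 5 erythrocyte genes, such as Hbb-bs, summed to 727.6, 2080 and 1377 CPM in white matter and to 1202, 616.3 and 1407 CPM in upper cortex. In white matter 5 of 7 astrocyte genes were higher in O-Ctrl by more than the margin, and their sum was 2109, 2777 and 2875 CPM. The 7 oligodendrocyte genes summed to 40410, 35680 and 37800 CPM. The part of these markers in the result was not tested.

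The question of exercise is addressed by O-Ex over O-Ctrl, which shares the O-Ctrl section with the comparison above. Over the whole section none of the 9 genes was past the margin, beside 3.06% of all genes higher and 0.477% lower. The sum differed by 0.01 (-0.03 to 0.05). The median of all genes was itself at 0.06, and 69.8% of genes were above 0, so the sum lay below the median gene. P2ry12 differed by -0.10 (-0.19 to -0.01) and Gpr34 by -0.10 (-0.20 to 0.01). Region-matched, none passed the margin, beside 2.6% of all genes higher and 0.255% lower. The region-matched sum was at 0.06 (0.01 to 0.11) and the median gene at 0.08, and Csf1r at 0.11 (0.02 to 0.21) was the one member whose interval excluded 0. With scaling by trimmed mean of M values (TMM), which takes that median shift out, the region-matched sum was at -0.03.

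In white matter 1 member, Cx3cr1, was higher in O-Ex by more than the margin, beside 12.5% of all genes higher and 3.49% lower. Cx3cr1 was at 23.3 CPM in Y-Ctrl (18.9 to 28.5), 31.3 CPM in O-Ctrl (26.4 to 36.9) and 41.8 CPM in O-Ex (35.0 to 49.5), a ratio of 0.37 (0.07 to 0.67) between the O sections. The intervals of Y-Ctrl and O-Ctrl overlapped, as did those of O-Ctrl and O-Ex. Selplg, at 43.5, 51.4 and 64.7 CPM, differed by 0.31 (0.06 to 0.55), and Csf1r, at 89.9, 108.1 and 131.3 CPM, by 0.27 (0.09 to 0.45). P2ry12 and P2ry13 were at -0.13 and -0.16 with intervals that included 0. The white matter sum was at 0.20 (0.10 to 0.30) on UMIs but at 0.03 on spots, with Cx3cr1 at 0.20, so the difference between the O sections in white matter depended on the scaling.

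In the cortical groups none of the 9 genes passed the margin between the O sections, beside 2.42% of all genes higher and 0.411% lower. The sum was at 0.15 (0.08 to 0.23), with the median gene at 0.05, and 8 of 9 genes were above 0, beside 66.1% of all genes. Selplg was highest at 0.25 (0.09 to 0.42). By group the sum was at 0.30 (0.17 to 0.43) in layer 5 and 0.05 (-0.07 to 0.17) in the upper layers. Elsewhere it was at 0.24 (0.07 to 0.40) in meninges and -0.20 (-0.37 to -0.03) in hypothalamus, where the sections held partly different subregions. In meninges the border macrophage sum was 119.4, 146.1 and 183.9 CPM in Y-Ctrl, O-Ctrl and O-Ex, and its part in that value was not tested. Hypothalamic P2ry12 was at 29.2 CPM in Y-Ctrl (23.8 to 35.5), 18.9 CPM in O-Ctrl (15.2 to 23.4) and 12.3 CPM in O-Ex (8.76 to 16.7). There Y-Ctrl lay above both O sections without overlap, and the O intervals overlapped.

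The members were then set beside other microglial genes of the same spots. Of all UMIs from the 9 genes and 34 further microglial genes, the 9 genes gave 20.2% in Y-Ctrl (exact binomial interval 19.9 to 20.5), 16.2% in O-Ctrl (15.9 to 16.5) and 15.8% in O-Ex (15.5 to 16.1). The share was lower in O-Ctrl than in Y-Ctrl in all 11 spot groups, with intervals apart in 7. This depended on which genes the 9 were set beside. With 29 of the 34 further genes, leaving out the complement genes C1qa, C1qb and C1qc among others, the share was 36.9%, 33.3% and 33.2%. It was then lower in O-Ctrl in 10 of 11 groups, with intervals apart in layer 5 alone (39.5% and 34.0%), while hippocampus was at 37.3% in both controls and layer 6 at 34.9% and 34.7%. With all 34, in white matter it was 16.8%, 13.2% and 14.0%, where the level of the 9 genes was higher. With the shorter list white matter was at 35.0%, 32.9% and 33.9%, with all intervals overlapping. Between the O sections the share with all 34 was lower in O-Ex in 7 of 11 groups, with intervals apart in none.

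**Figure D4:**
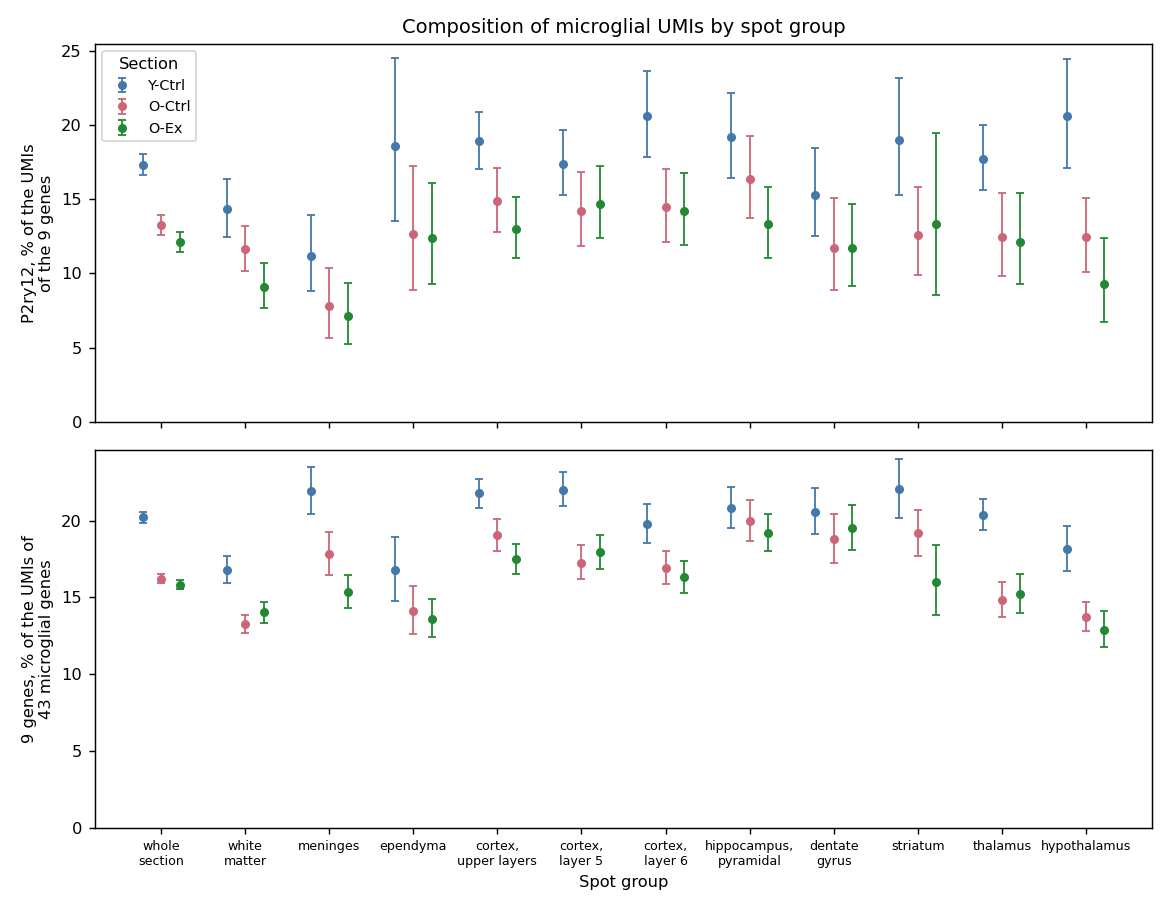
P2ry12 as a percent of the UMIs of the 9 genes (top) and the 9 genes as a percent of the UMIs of the 9 and 34 further microglial genes (bottom), by section, over the whole section and in the 11 spot groups, with exact 95% binomial intervals. In both panels the Y-Ctrl point is above the O-Ctrl point in every spot group, with intervals apart in 3 of 11 groups at the top and 7 of 11 at the bottom.

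Over whole sections the summed level of the 9 genes was the same within counting error, while the 34 further genes summed to 712.2, 935.1 and 972.8 CPM. Among the 16 of them at 10 CPM or more, 5 were region-matched higher in O-Ctrl by more than the margin and none lower, beside 1.2% and 0.754% of all genes. Their median was 0.20, close to the 0.17 of the 7 members of that level. The complement genes C1qa (68.5, 119.5 and 127.9 CPM) and C1qb (73.4, 115.2 and 126.2 CPM) are examples. Of 17 measured genes of disease-associated microglia, a reactive state, 13 were at 10 CPM or more. Of these, 7 were region-matched higher in O-Ctrl by more than the margin and none lower, beside the same shares of all genes, with a median of 0.33. Lyz2, a lysozyme, was at 12.9, 36.0 and 44.6 CPM, and Trem2, a lipid receptor of that state, at 17.4, 30.4 and 29.2 CPM. In white matter 11 of the 13 were higher by more than the margin, beside 10.4% of all genes.

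Within the 9 genes the make-up differed as well. P2ry12 gave 17.3% of their UMIs in Y-Ctrl (16.6 to 18.0), 13.3% in O-Ctrl (12.6 to 13.9) and 12.1% in O-Ex (11.4 to 12.8). Its share was lower in O-Ctrl than in Y-Ctrl in all 11 groups, white matter included (14.3%, 11.6% and 9.10%), with intervals apart in 3. Tmem119, Cx3cr1 and Olfml3 each took a larger share in O-Ctrl in 9 of 11 groups.

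Regional differences could be tested, because the 3 sections serve as replicates of each spot group. They come from different conditions, so their spread holds any effect of condition. edgeR's quasi-likelihood test with section as a block and Benjamini-Hochberg adjustment called a difference among the 11 groups for 9 of 9 members, beside 92.2% of 14025 genes. The largest adjusted p of the 9 was 9.532e-05, for P2ry13.

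White matter against the cortical groups was called higher for 9 of 9 members, beside 35.2% of all genes higher and 34.3% lower. The level of Gpr34 was 24.1, 40.3 and 39.9 CPM in white matter and 12.1, 10.8 and 11.6 CPM in pooled cortex of Y-Ctrl, O-Ctrl and O-Ex, so white matter was above cortex in each section. The edgeR log2 fold change of Gpr34 was 1.71 (SE 0.14, adjusted p = 6.911e-14). Csf1r was at 89.9, 108.1 and 131.3 CPM in white matter against 42.9, 33.3 and 37.4 CPM in cortex, with an edgeR log2 fold change of 1.69 (SE 0.10, adjusted p = 1.732e-17). P2ry12 had the smallest edgeR log2 fold change of the 9, at 1.04 (SE 0.11, adjusted p = 3.532e-11), from 44.2, 45.3 and 40.8 CPM against 31.3, 19.4 and 20.6 CPM. The other 6 members had edgeR log2 fold changes from 1.24 for P2ry13 to 1.67 for Olfml3.

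This contrast depended on the scaling, since a white matter spot held fewer UMIs in all: 10610, 10780 and 9531 on average against 24640, 22300 and 18670 in upper cortex. Scaled to spots, the median gene was at -1.18, and edgeR called 1210 of 14025 genes higher in white matter and 10574 lower. It called 5 of 9 members higher and none lower. These were Gpr34 at 0.50 (SE 0.16, adjusted p = 0.003773), Csf1r at 0.48, Olfml3 at 0.47, Cx3cr1 at 0.42 and Selplg at 0.29. Tmem119, Siglech and P2ry13 were at 0.09, 0.11 and 0.03, and P2ry12 turned to -0.16 (edgeR adjusted p = 0.2504).

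**Figure D5:**
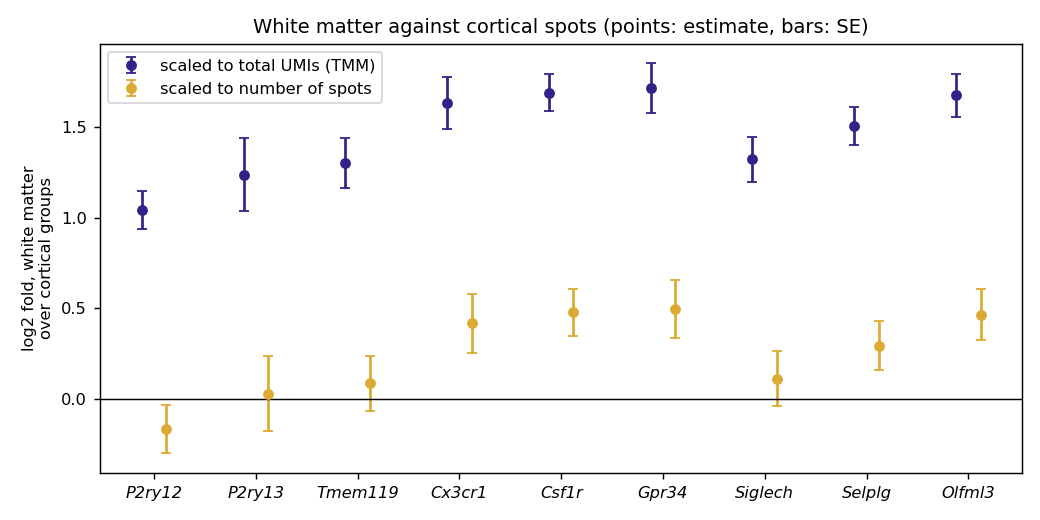
edgeR log2 fold change of white matter over the cortical groups for each gene, with bars of 1 SE on either side, on UMI totals (TMM) and per spot. All 9 genes lie above 0 on UMI totals, from 1.04 for P2ry12 to 1.71 for Gpr34. Per spot, P2ry12 lies at -0.16 and 5 genes are called higher, beside 1210 of 14025 genes higher and 10574 lower.

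Thalamus and hypothalamus gave no such calls on UMI totals. For thalamus against cortex edgeR called 0 of 9 members, beside 25.5% of all genes higher and 26.3% lower, and 0 of 9 had an unadjusted p under 0.05. The log2 fold changes ran from -0.24 for P2ry13 to 0.20 for Gpr34, with edgeR adjusted p from 0.1762 to 0.9032. For hypothalamus 0 of 9 were called, beside 25.0% of all genes higher and 24.1% lower, again with 0 of 9 at an unadjusted p under 0.05. P2ry12 came nearest, at -0.25 (SE 0.13, edgeR adjusted p = 0.09567). DESeq2 called 0 of 9 in each contrast. Scaled to spots, edgeR called 9 of 9 lower in both regions. Of 14025 genes it called 9383 lower and 985 higher in thalamus, and 9424 lower and 881 higher in hypothalamus. The median gene was then at -0.60 in thalamus and -0.63 in hypothalamus. Without the Y-Ctrl section Cx3cr1 was called higher in thalamus (0.44) and P2ry12 lower in hypothalamus (-0.37). Of 14046 genes, 2938 were then called higher and 3082 lower in thalamus, and 2899 higher and 3163 lower in hypothalamus.

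In the order of summed levels, white matter and meninges led in each section. In Y-Ctrl they did not differ beyond counting error (309.1 and 308.9 CPM), while in O-Ctrl (389.2 against 305.7 CPM) and O-Ex (448.6 against 361.2 CPM) white matter was above meninges without overlap. Striatum, dentate gyrus and ependyma followed at 174.1 to 229.8 CPM, and neighbours among them overlapped except striatum and dentate gyrus in O-Ex. The remaining 6 groups spanned 116.6 CPM, in layer 5 of O-Ctrl, to 173.5 CPM, in upper cortex of Y-Ctrl. Olfml3 had its highest group in meninges in all 3 sections, at 62.7, 75.3 and 77.5 CPM, where fibroblasts and border macrophages also lie. P2ry12, Csf1r, Cx3cr1, Gpr34, Selplg and Siglech were highest in white matter in all 3 sections.

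The share of spots with at least 1 UMI of the 9 genes was compared after each spot was thinned to 3000 UMIs. It was 36.3% in Y-Ctrl (34.7 to 38.0), 38.2% in O-Ctrl (36.6 to 39.8) and 40.04% in O-Ex (38.4 to 41.7), against 79.1%, 79.0% and 77.0% before thinning. In white matter the thinned share was 48.5%, 56.6% and 66.8%, and 79.6%, 87.5% and 87.1% before thinning. The thinned intervals of Y-Ctrl (43.38 to 53.55) and O-Ctrl (51.74 to 61.38) overlapped, and that of O-Ex (61.43 to 71.80) lay just above O-Ctrl. In upper cortex it was 39.7%, 34.4% and 35.2%, with all intervals overlapping. Microglia are found in all of these regions, so a background share could not be read.

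The genes whose regional pattern was most like the mean of the 9 were found by Pearson's r over 33 values, 11 groups in 3 sections, centred within section. The groups of a section share a library, so r is given as a description. Among the nearest 10 were C1qc (0.946), Laptm5 (0.944), Tgfbr1 (0.940), Ptpn18 (0.935), C1qa (0.929), Fcgr3 (0.923), C1qb (0.911), Aif1 (0.907) and Tyrobp (0.903). Of the members, each set against the mean of the other 8, Csf1r was nearest at 0.946 and P2ry13, the one with the fewest counts, farthest at 0.646. P2ry12 was at 0.815.

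Ligands and signalling partners of the 9 genes gave 8 of 15 genes at 10 CPM or more. For O-Ctrl over Y-Ctrl 2 of these 8 were region-matched higher by more than the margin and none lower, beside 1.2% and 0.754% of all genes. Csf1, a ligand of CSF1R, was at 12.2, 18.3 and 16.8 CPM, a ratio of 0.41, and Tyrobp, the signalling adaptor DAP12 that pairs with Siglec-H, at 59.4, 97.3 and 93.1 CPM, a ratio of 0.56. The other CSF1R ligand, Il34, was at 26.1, 29.3 and 28.9 CPM, a ratio of 0.17. Cx3cl1, the neuronal ligand of CX3CR1, was at 296.7, 255.9 and 273.9 CPM, a ratio of -0.13. For O-Ex over O-Ctrl none of the 8 passed the margin region-matched, beside 2.6% of all genes higher and 0.255% lower.

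Partners in purine signalling had these levels in Y-Ctrl, O-Ctrl and O-Ex. Entpd1, the ectonucleotidase CD39 that degrades ATP and ADP, was at 4.45, 5.14 and 6.67 CPM, and Nt5e, the enzyme CD73 that makes adenosine, at 3.14, 2.09 and 2.28 CPM. Kcnk13, the potassium channel THIK-1 of microglia, was at 10.0, 11.5 and 10.7 CPM, and Gnai2, a G protein subunit, at 112.3, 125.9 and 122.5 CPM. Of the enzymes of lysophosphatidylserine, the GPR34 ligand, Abhd16a was at 54.8, 52.6 and 53.3 CPM, Abhd12 at 247.6, 253.1 and 262.8 CPM and Pla1a at 0.88, 1.246 and 1.43 CPM. Tgfb1 was at 2.30, 3.21 and 4.17 CPM. Selp, a selectin that binds PSGL-1, had 0, 2 and 2 UMIs, and Sele, another of its binding partners, 0 in each section, where 3 counts would be 0.049, 0.053 and 0.058 CPM.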

How the data were processed

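Spatial RNA libraries of 3 mouse brain sections were analysed from the deposited matrices, which hold raw whole-number UMI counts deposited by the authors (Space Ranger 2.0.0 per the file headers, mm10 per the submitters' processing notes). The labels name nuclear RNA, while their protocol describes whole sections, and spot images were not used here. Sections were grouped by title. Barcodes with at least 3000 UMIs were kept. Each spot was assigned to the region with the highest score over fixed markers, if above 1, and groups with at least 50 spots in each section were shared. Counts were summed per section and group, and ratios used CPM (UMIs scaled by the total) plus 5. Ratios between conditions had no test. Regional tests used edgeR 4.0.16 in R 4.3.3 (quasi-likelihood, TMM, section as block, adjusted p under 0.05), with DESeq2 1.42.0 as an alternative. The edgeR script was tested on simulated data. Clustering used scanpy 1.11.5 with igraph 0.11.9, without the genes of the microglial and immune lists, and intervals scipy 1.17.1. The Leiden resolution was 0.8, on 2000 variable genes, 30 components and 15 neighbours. Spots were not screened for doublets.

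The 9 genes, the 15 gene lists, the thresholds and the alternatives were chosen with earlier results of these data known. Named genes were all members, all ligands and partners, the 10 genes most like the members in pattern, and up to 4 genes of each other list (the 2 with most counts and the 2 with the largest region-matched ratio). Some genes that this rule names are not reported here. A single list symbol was not matched. Positions came from the GENCODE annotation of mm10 and promoter sequences from RefSeq on GRCm38.p6. Depth limits single genes in single groups, where counts were often under 200. Other minimums of UMIs, pseudocounts, scalings, spot groups and left-out sections or groups were tried.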

Additional observations from a re-analysis of the deposited data

Results flagged for a closer look

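The summed level of the 9 genes differed between the controls in opposite directions in 2 kinds of tissue: the log2 ratio of O-Ctrl over Y-Ctrl was 0.33 in white matter and -0.28 as the mean of the cortical groups. Olfml3 did the same, at 0.54 in white matter and -0.18 in cortex. With 1 section per condition the difference between the tissues was not tested.

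Barcodes under the minimum of 3000 UMIs, which no main comparison used, also held counts of the 9 genes. Whether these barcodes lay under tissue is not known. Their summed level there was 167.9 CPM in Y-Ctrl (145.2 to 193.2), 180.4 CPM in O-Ctrl (157.4 to 205.7) and 162.0 CPM in O-Ex (141.1 to 185.1), from 195, 222 and 216 UMIs. A count of 0 would have allowed up to 2.58, 2.44 and 2.25 CPM.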

How the results depend on the processing

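Most values stayed close to those of the main setting, with ratios judged by their counting interval. Some sums near 0 changed sign, as given below. Of the alternatives, scaling to spots, chosen after seeing the data, moved most. It put the summed ratio of O-Ctrl over Y-Ctrl at -0.13 over whole sections and -0.13 region-matched, and that of O-Ex over O-Ctrl at -0.0508 and -0.0026, beside a median of all genes of -0.13 and -0.14 for the controls. On that scale 5 members were called higher in white matter and 9 lower in thalamus and hypothalamus. Of 14025 genes, 1210 were called higher in white matter, 9383 lower in thalamus and 9424 lower in hypothalamus. P2ry12 turned to -0.16 in white matter. In thalamus Tmem119 (-0.54), Cx3cr1 (-0.44), Csf1r (-0.53), Gpr34 (-0.40) and Olfml3 (-0.57) turned, and in hypothalamus Cx3cr1 (-0.59), Csf1r (-0.65) and Olfml3 (-0.52). These regions hold fewer UMIs per spot than cortex. TMM scaling put the sum of O-Ex over O-Ctrl at -0.0718 over whole sections and -0.0342 region-matched. With spots from 1000 UMIs the region-matched sums were 0.0801 for O-Ctrl over Y-Ctrl and -0.0286 for O-Ex over O-Ctrl, and the cause was not tested.

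Leaving out each spot group in turn gave region-matched sums of -0.0081 to 0.0766 for O-Ctrl over Y-Ctrl, highest without layer 5, and 0.0329 to 0.0828 for O-Ex over O-Ctrl. Leaving out each section gave 0 to 1 calls in thalamus and 0 to 1 in hypothalamus, the call coming without Y-Ctrl in each, and 9 in white matter throughout. Without Y-Ctrl, 6020 of 14046 genes were called in thalamus and 6062 in hypothalamus. In white matter 4567 of 14046 genes were called higher without Y-Ctrl, 4354 of 13980 without O-Ctrl and 4501 of 14275 without O-Ex. Without a filter on low counts 1 member, P2ry12, was called lower in hypothalamus, beside 3642 of 21515 genes lower and 3464 higher. The share of the 9 genes differed by -3.98 percentage points between the controls (20.2% and 16.2%) and by -3.53 with 29 further genes, without C1qa, C1qb and C1qc among others, from a higher base (36.9% and 33.3%). With that list intervals were apart in 1 spot group in place of 7. Among all genes, region-matched, 176 passed the margin of 0.322 for O-Ctrl over Y-Ctrl, 40 passed 1.5-fold, 278 passed at a mean of at least 2 CPM, 289 with a pseudocount of 1 CPM, 115 with one of 10 CPM and 425 scaled to spots. For O-Ex over O-Ctrl 257 passed, 26 at 1.5-fold, 536 and 124 with those pseudocounts, 155 with TMM and 142 scaled to spots. P2ry12 passed the margin over the whole section in 4 of the alternatives and was region-matched inside it in 3, a pseudocount of 10 CPM among them. With a looser score of 0.5 for spot groups P2ry12 in white matter was at -0.03 between the controls. Contrasts with cortex were not run on unsupervised clusters, since none had 3 cortical markers. No paired analysis was possible because each condition has 1 section. Depth limits single genes in small groups: striatum of O-Ex gave 22 UMIs of P2ry12.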

Other observations

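Choroid plexus spots, which were too few in Y-Ctrl for the shared groups (45, 57 and 181 spots in Y-Ctrl, O-Ctrl and O-Ex), held 127.2 CPM of the 9 genes in Y-Ctrl (106.0 to 151.5), 235.7 CPM in O-Ctrl (211.0 to 262.5) and 121.1 CPM in O-Ex (110.3 to 132.6). A single O-Ctrl spot, singled out after its values were seen, held 100 of the 331 member UMIs of that group. Without it O-Ctrl was at 167.2 CPM (146.3 to 190.2), which overlapped Y-Ctrl and lay above O-Ex. The group was not equal in make-up between sections. An unsupervised cluster with choroid plexus markers held 38, 31 and 96 of its spots in Y-Ctrl, O-Ctrl and O-Ex. A cluster led by Lypd1 and Hpcal1 held 0, 1 and 51, and one with white matter markers 6, 18 and 9. These levels therefore compare partly different tissue. Over the whole section the next spot of O-Ctrl held 34 and the highest spots of Y-Ctrl and O-Ex 40 and 36. The O-Ctrl spot had 28 UMIs of Csf1r, 19 of P2ry12, 14 of Selplg, 11 of Olfml3 and 10 of Gpr34 among 22709 in all. Genes of the reactive state were present in it, with 118 UMIs of Tyrobp, 85 of C1qa, 44 of Spp1, 41 of Trem2, 38 of Lyz2 and 34 of Cst7. The highest spots of Y-Ctrl and O-Ex had 0 UMIs of Spp1, Cst7 and Lyz2. The border macrophage markers Mrc1 and Cd163 were at 0 in the O-Ctrl spot and Pf4 at 1 UMI. These markers had only 125, 41 and 89 UMIs in the whole O-Ctrl section, so low counts in a single spot say little. Ttr, a choroid plexus gene, gave 578 UMIs in that spot.

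Across single spots the 9 genes were only weakly related: the median Pearson r over 36 pairs of genes was 0.0667, 0.079 and 0.0658 in the Y-Ctrl, O-Ctrl and O-Ex sections, at counts of about 3 UMIs per spot for all 9.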
